A study of Mus musculus with 2 samples.

Results

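The 8 genes described here handle vitamin A in the eye. *Ttr*, *Rbp4*, *Stra6*, *Lrat*, *Rpe65*, *Rdh5*, *Rdh10* and *Rlbp1* were taken by name from the 31053 genes counted in single cells of e13.5 mouse eye cups, and all 8 were in the gene table. Of these, 6 had transcripts in the retinal pigmented epithelium (RPE) and 2, *Rpe65* and *Lrat*, had none. The rule names the genes by what they do and uses no measured value, but the genes were chosen with earlier results of these data known.

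Vitamin A travels in the blood as retinol bound to RBP4, which is itself bound to transthyretin, the product of *Ttr*. The receptor STRA6 passes retinol into the RPE, where LRAT stores it as retinyl ester and RPE65, the isomerase of the visual cycle, turns the ester into 11-cis retinol. RDH5 and RDH10 oxidise retinols to retinals, and CRALBP, the product of *Rlbp1*, carries the 11-cis form. In the embryo the oxidation of retinol, largely by RDH10, is also the first step towards retinoic acid.

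Cells came from eyes without cornea, lens and optic nerve, taken at e13.5, with 3 samples pooled into 1 library for each genotype. The control library was Myrf fl/fl. The mutant library was Rx>cre Myrf fl/fl, which carries the same floxed *Myrf* alleles and a Cre transgene active in the *Rx* (eye field) lineage, so that recombination is directed to retina and RPE and not to the mesenchyme, vessels and blood around them. Each genotype was thus 1 library, no test between genotypes was possible, and every interval below is a 95% interval that covers counting error only.

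Transcripts were counted as unique molecular identifiers (UMIs), of which the control library held 63483835 over 6039 barcodes and the mutant library 75228861 over 6754 barcodes. After filtering, 5451 control and 6309 mutant cells were kept, and 72 barcodes occurred in both libraries. The cells formed 28 clusters, of which 4 were left unnamed (18.4% of control and 14.3% of mutant cells) and the others fell into 15 classes by marker genes that exclude the 8 genes. One class met 5 of its 10 pericyte markers, but none was among its leading genes, so it is called the *Fmo1* and *Spp1* cluster here.

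The RPE-like class was a single cluster that met 15 of 15 RPE markers, led by the pigment genes *Pmel*, *Trpm1* and *Mlana* together with *Ttr* and *Rlbp1*. It held 256 control cells (4.70% of the kept cells) and 155 mutant cells (2.46%). Depth varied widely in both libraries, from 503 to 38946 UMIs per cell in the control (median 4853) and from 513 to 43290 in the mutant (median 3623). *Myrf* itself had 155 UMIs in control and 30 in mutant RPE-like cells, which is 73.3 and 20.05 CPM, where CPM is the UMIs of a gene per 1000000 UMIs of the class. The counts come from the 3′ end of transcripts, and the sources used here do not say whether that end is in the floxed stretch, so they do not check the deletion itself. *Tmem98*, a gene whose product binds MYRF, had 130 CPM in the control and 61.5 CPM in the mutant.

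The positions of 7 of the genes on the mouse genome (GRCm38), all protein coding, are given here, and that of *Ttr* is not. *Rdh10* is on chromosome 1 (16105774 to 16133734, plus strand), *Rpe65* on chromosome 3 (159599175 to 159625321, plus strand) and *Lrat* on chromosome 3 (82892579 to 82903973, minus strand). *Rlbp1* is on chromosome 7 (79374870 to 79387048, minus strand), *Stra6* on chromosome 9 (58063788 to 58153996, plus strand), *Rdh5* on chromosome 10 (128913593 to 128922888, minus strand) and *Rbp4* on chromosome 19 (38116629 to 38125281, minus strand). Overlapping genes were annotated for 3 of them. *Rdh5* overlaps *Bloc1s1* on its own strand, *Stra6* overlaps *Gm16131* on its own strand and *Ccdc33* on the other, and *Lrat* overlaps *Rbm46os* on the other. How reads in the shared stretches were counted is not given in the sources used here.

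The sequence before the transcription start is shown for *Rlbp1* and *Rdh5*, which were both lower in mutant RPE-like cells and have 1 start each in the RefSeq promoter table, and for *Rpe65*, which was not detected. Each line gives 225 bases of GRCm38.p6, from 250 to 26 bases before the start, written 5′ to 3′ along the gene. They are *Rlbp1* at chr7:79387053-79387277 on the minus strand, *Rdh5* at chr10:128919323-128919547 on the minus strand and *Rpe65* at chr3:159598931-159599155 on the plus strand. Capitals mark the only motif found.
Rlbp1: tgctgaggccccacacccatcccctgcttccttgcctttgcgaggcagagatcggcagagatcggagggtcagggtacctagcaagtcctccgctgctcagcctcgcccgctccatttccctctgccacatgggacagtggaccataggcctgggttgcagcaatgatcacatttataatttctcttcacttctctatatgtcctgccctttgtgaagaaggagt
Rdh5: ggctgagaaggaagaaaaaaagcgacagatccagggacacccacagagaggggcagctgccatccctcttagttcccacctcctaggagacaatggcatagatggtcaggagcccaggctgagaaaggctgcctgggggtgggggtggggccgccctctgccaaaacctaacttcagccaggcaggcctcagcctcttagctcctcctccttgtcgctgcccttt
Rpe65: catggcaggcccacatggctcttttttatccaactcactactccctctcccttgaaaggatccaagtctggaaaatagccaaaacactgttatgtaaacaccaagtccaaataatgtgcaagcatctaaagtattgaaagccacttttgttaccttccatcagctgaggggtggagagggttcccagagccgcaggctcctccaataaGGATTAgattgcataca

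The table held 10 starts for 6 of the genes (*Rlbp1*, *Rdh5*, *Rpe65*, *Stra6*, *Lrat* and *Rbp4*). In the 250 bases before each start both strands were searched for the E-box CACGTG and the M-box TCATGTG that MITF is known to bind, the OTX core TAATCC, and the MYRF core CTGGCAC or CTGGTAC. The OTX core was the only match, once, in *Rpe65*, on the opposite strand and starting 42 bases before the start as read along the gene. Among all 32851 promoter windows of that length, 6.02% held the E-box, 3.25% the M-box, 6.25% the OTX core and 5.93% the MYRF core. A match or its lack describes these letters in these windows only.

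The transcripts of the 6 genes detected in RPE-like cells fell into 3 patterns across the eye cup. *Ttr* and *Rlbp1* were almost confined to RPE-like cells, *Rdh5* was highest there with a low level elsewhere, and *Stra6*, *Rdh10* and *Rbp4* were shared with other classes. *Ttr* had 96.5% of its 5268 control UMIs and 96.5% of its 1190 mutant UMIs in RPE-like cells, and *Rlbp1* had 92.4% of 1091 and 92.9% of 450. *Rdh5* had 67.7% of 903 UMIs there in the control and 45.5% of 532 in the mutant. *Rdh10* had 31.4% of 1150 and 8.19% of 940, *Stra6* 28.7% of 2123 and 15.4% of 1857, and *Rbp4* 26.9% of 353 and 13.1% of 274. These shares also depend on the size of the class. RPE-like cells held 2115089 of all 61244661 kept UMIs in the control and 1496350 of 73404004 in the mutant. The plot of levels by class shows these patterns side by side.

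**Figure D1:**
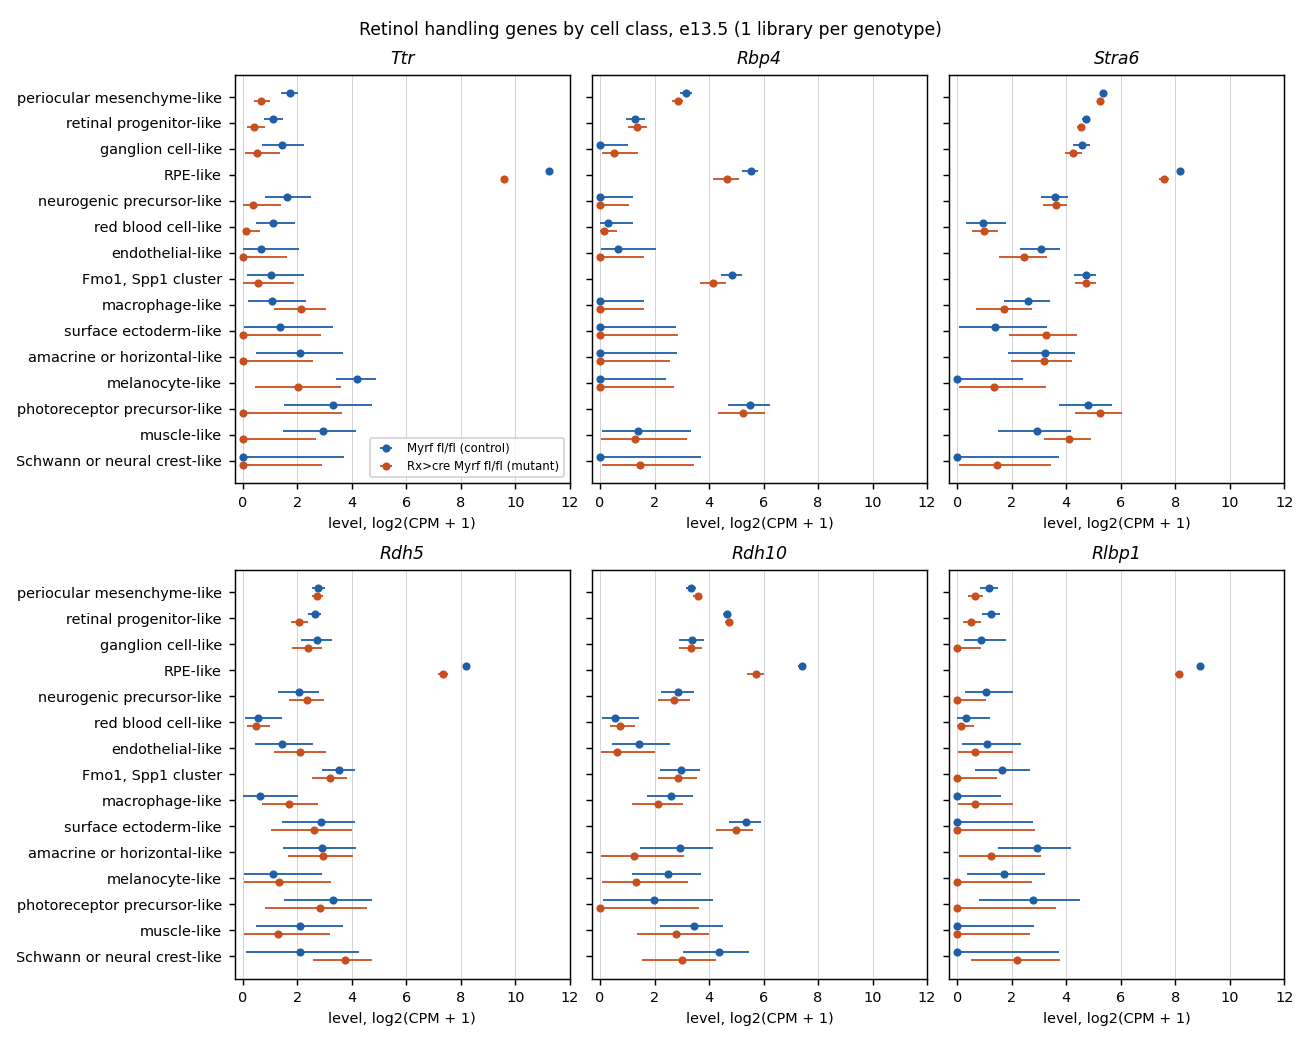
Level of the 6 detected genes in each of the 15 classes, as log2(CPM + 1), for the control (blue) and the mutant library (orange), with 95% Poisson intervals. *Ttr* and *Rlbp1* stand out in RPE-like cells, with 2404 and 477 CPM in the control, whereas *Rdh10*, *Stra6* and *Rbp4* have levels well above 0 in several other classes.

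*Ttr*, which encodes the plasma carrier of RBP4 and thyroid hormone, had 2404 CPM (2338 to 2471) in the RPE-like class of the control and 767 CPM (723 to 813) in that of the mutant. The log2 ratio of mutant over control was -1.65 (-1.74 to -1.56), a 3.13-fold lower level. In the next named class of the control, melanocyte-like cells, *Ttr* had 17.4 CPM from 15 UMIs, and 1 cell held 86.7% of them. In the mutant the next named class was macrophage-like cells, with 3.38 CPM from 6 UMIs. The intervals of the RPE-like class did not overlap those of any other named class in either library. A single setting moved this ratio by over 1.5 times towards a larger difference, a mitochondrial limit of 5%, which gave -3.23 from 550 and 77 UMIs. Other settings moved it towards 0. The ratio was -1.12 under a limit of 20000 UMIs per cell, -1.325 as a mean over cells and -0.10 in cells called S or G2/M.

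*Rbp4*, the retinol carrier itself, was shared with other classes. Control RPE-like cells had 44.9 CPM (36.3 to 54.9) from 95 UMIs, and there were 24.1 CPM (16.9 to 33.3) in mutant RPE-like cells from 36 UMIs, with a log2 ratio of -0.88 (-1.50 to -0.33). Among cells of at most 2000 UMIs it was 0.16, from 4 and 3 UMIs. Photoreceptor precursor-like cells had 44.6 CPM in the control and 37.0 CPM in the mutant, and their intervals overlapped those of RPE-like cells in both libraries. These levels rested on 15 and 12 UMIs, and 1 control cell held 66.7% of the former. The *Fmo1* and *Spp1* cluster had 27.8 and 16.8 CPM, with a log2 ratio of -0.71 (-1.38 to -0.08). Periocular mesenchyme-like cells had 7.91 and 6.24 CPM, with a log2 ratio of -0.34 (-0.67 to -0.01), and retinal progenitor-like cells had 1.45 and 1.55 CPM.

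*Stra6*, the receptor for retinol on RBP4, had 288 CPM (266 to 312) in control and 191 CPM (170 to 215) in mutant RPE-like cells, with a log2 ratio of -0.59 (-0.80 to -0.39). RPE-like cells ranked first in both libraries, without overlap of intervals. Periocular mesenchyme-like cells came next in the control with 40.1 CPM, beside 36.8 CPM in the mutant, and their log2 ratio was -0.12 (-0.26 to 0.02). Retinal progenitor-like cells had 25.3 and 22.4 CPM and a ratio of -0.17 (-0.37 to 0.02), and ganglion cell-like cells 22.8 and 18.2 CPM and a ratio of -0.33 (-0.79 to 0.13). Photoreceptor precursor-like cells had 26.7 and 37.0 CPM from 9 and 12 UMIs, and the *Fmo1* and *Spp1* cluster 25.1 and 25.4 CPM. In the control, the intervals of mesenchyme-like, photoreceptor precursor-like, retinal progenitor-like, *Fmo1* and *Spp1* and ganglion cell-like classes, in this order, each overlapped the next. Within periocular mesenchyme-like cells *Stra6* varied by cluster, from 61.4 CPM in the control cluster led by *Col9a3* and *Cldn11* to 16.8 CPM in the one led by *Pgf* and *Cdh10*.

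*Lrat* and *Rpe65*, which encode the esterifying enzyme and the isomerase of the visual cycle, were not detectable in RPE-like cells. Both genes had 0 UMIs in the 256 control and the 155 mutant cells, which allows up to 1.17% and 1.94% of cells with a UMI and up to 1.42 and 2.00 CPM, taking 3 counts as the limit of a count of 0. This limits cells with a UMI at these depths and not cells that express the gene. Over all kept cells, *Rpe65* had 1 UMI, in a mutant periocular mesenchyme-like cell. *Lrat* had 2 UMIs in 1 control cell and 1 UMI in a mutant cell of the periocular mesenchyme-like class, and 2 UMIs in 2 mutant melanocyte-like cells. No ratio is given for either gene. *Rgr*, an opsin of the RPE that acts in retinal isomerisation, likewise had 0 UMIs in RPE-like cells of both libraries.

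*Rdh5*, the 11-cis retinol dehydrogenase of the RPE, had 289 CPM (266 to 313) in control and 162 CPM (142 to 183) in mutant RPE-like cells, with a log2 ratio of -0.83 (-1.06 to -0.62). Among cells of at most 2000 UMIs it was 0.48, from 14 and 14 UMIs. Every other class with a ratio had at most 10.5 CPM in both libraries, and mutant Schwann or neural crest-like cells, with too few UMIs for a ratio, had 12.4 CPM from 7 UMIs. Periocular mesenchyme-like cells had 5.83 and 5.64 CPM with a ratio of -0.05 (-0.41 to 0.32), and retinal progenitor-like cells had 5.19 and 3.23 CPM with a ratio of -0.68 (-1.19 to -0.19).

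*Rdh10*, the retinol dehydrogenase of retinoic acid synthesis in the embryo, had 171 CPM (153 to 189) in control and 51.5 CPM (40.6 to 64.3) in mutant RPE-like cells. The log2 ratio was -1.72 (-2.10 to -1.37), a 3.28-fold lower level from 361 and 77 UMIs. Surface ectoderm-like cells ranked second with 39.4 and 30.6 CPM, and in the mutant their interval overlapped that of RPE-like cells, whereas in the control it did not. Retinal progenitor-like cells had 24.1 and 25.5 CPM from 432 and 442 UMIs, with a ratio of 0.08 (-0.12 to 0.27). Periocular mesenchyme-like cells had 9.17 and 10.99 CPM, with a ratio of 0.26 (-0.02 to 0.54). The intervals of both ratios held 0. When every cell with UMIs of at least 3 RPE markers was counted as RPE, which drew in 1210 control and 899 mutant cells, the ratio of *Rdh10* was -0.50. Among RPE-like cells of at most 2000 UMIs *Rdh10* had 11 control and 0 mutant UMIs, with a ratio of -3.11. With 0 mutant UMIs, the size of that ratio rests on the 1 UMI added to each sum.

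*Rlbp1*, which encodes the retinal carrier CRALBP, had 477 CPM (448 to 507) in control and 279 CPM (253 to 307) in mutant RPE-like cells. The log2 ratio was -0.77 (-0.94 to -0.60), a 1.70-fold lower level. The next named class was amacrine or horizontal-like cells in the control, with 6.57 CPM from 4 UMIs, and Schwann or neural crest-like cells in the mutant, with 3.53 CPM from 2 UMIs.

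All 6 detected genes were lower in the mutant RPE-like class, and so were 6070 of the 11243 genes with at least 10 UMIs. The median of their log2 ratios was -0.85, whereas the median over the 11243 genes with at least 10 UMIs was -0.04. Of the 6, *Ttr* and *Rdh10* were lower by at least 2-fold, the size used for a call, and none was higher by that much. Among all 11243 genes, 4.43% were lower and 2.72% higher by at least 2-fold. The share of all genes with a ratio as low or lower was 0.907% for *Ttr*, 0.809% for *Rdh10*, 6.10% for *Rbp4*, 6.58% for *Rdh5*, 7.75% for *Rlbp1* and 12.2% for *Stra6*. Pigment genes of the same cells had ratios that were lower by less, with some overlap of intervals. *Pmel*, the scaffold protein of the melanosome, had a ratio of -0.33 (-0.37 to -0.29), and *Mlana* -0.13 (-0.27 to -0.0037). *Dct* had -0.44 (-0.52 to -0.37), *Tyrp1* -0.39 (-0.59 to -0.21) and *Slc24a5* -0.53 (-0.69 to -0.36). None of these intervals overlapped those of *Ttr* and *Rdh10*, but all except that of *Mlana* overlapped that of *Rbp4*. Those of *Dct*, *Tyrp1* and *Slc24a5* also overlapped that of *Stra6*, and that of *Slc24a5* those of *Rdh5* and *Rlbp1*. The plot of levels and ratios in RPE-like cells gives the 6 genes together.

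**Figure D2:**
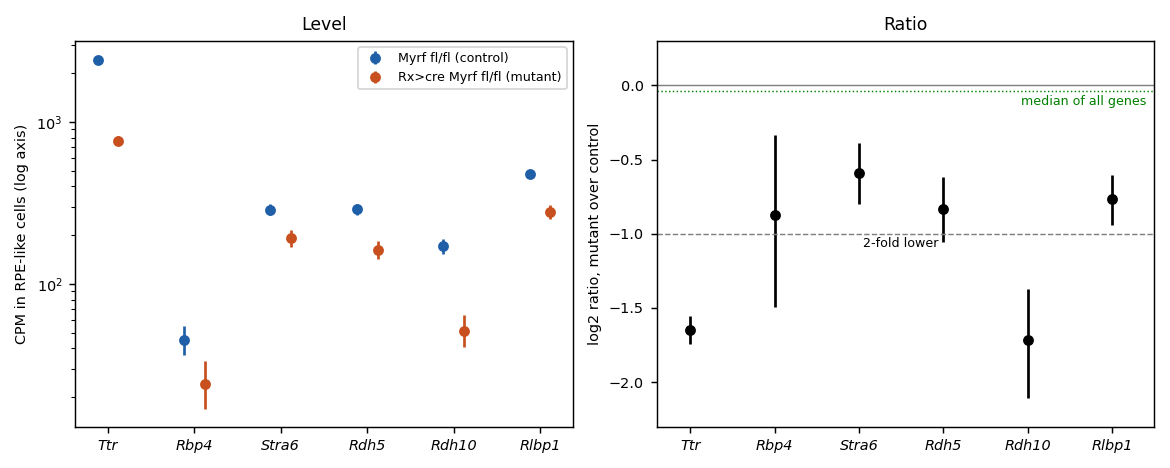
Left, CPM of the 6 genes in control (blue) and mutant (orange) RPE-like cells on a log axis, with 95% Poisson intervals. Right, the log2 ratio of mutant over control with its 95% counting interval, where every interval lies below 0 and those of *Ttr* and *Rdh10* lie below the dashed line at 2-fold. The share of all genes with such intervals was not computed.

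In retinal progenitor-like cells 2 of the 6 genes, *Ttr* and *Rlbp1*, were lower by at least 2-fold, where 1.75% of 13759 genes were, and in periocular mesenchyme-like cells the same 2 genes were, where 1.87% of 14639 genes were. The levels were low. *Ttr* had 1.17 and 0.346 CPM in retinal progenitor-like and 2.28 and 0.604 CPM in periocular mesenchyme-like cells, and *Rlbp1* 1.34 and 0.403 CPM and 1.22 and 0.564 CPM. Each level outside the RPE was set over the level of the same gene in RPE-like cells, beside the same quotient for the summed pigment genes *Pmel*, *Dct*, *Tyrp1* and *Mlana*, which was 0.203% in control and 0.212% in mutant mesenchyme-like cells and 0.221% and 0.121% in retinal progenitor-like cells. *Slc24a5* was left out of this sum because many classes had it, with 44.2% of its RPE-like level in control mesenchyme-like cells. In the 13 classes other than RPE-like and melanocyte-like cells, the interval of *Ttr* and that of *Rlbp1* lay above the interval of the pigment genes in 0 classes in either library. In mesenchyme-like cells *Ttr* had 0.0949% and 0.0787% of its RPE-like level, and *Rlbp1* 0.255% and 0.202%. *Rdh10* and *Stra6* each lay above in 10 of the 13 classes in the control and 10 in the mutant, *Rdh5* in 8 and 9 and *Rbp4* in 4 and 4. With *Slc24a5* in the sum, as first planned, *Rdh10* lay above in 8 and 10 classes and *Stra6* in 6 and 6. By that sum *Rdh5* lay above in only 1 and 3 classes and *Rbp4* in 3 and 4, and *Ttr* and *Rlbp1* in 0. In mesenchyme-like cells *Rdh5* had 2.02% and 3.48% of its RPE-like level, *Stra6* 13.9% and 19.2%, and *Rbp4* in the *Fmo1* and *Spp1* cluster 61.8% and 69.8%. The part of free RNA in these levels was not tested.

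Cells were then compared at equal depth, after each was thinned to 3000 UMIs, which left 136 control and 80 mutant RPE-like cells and lost 120 and 75 shallower ones. *Ttr* was found in 55.1% of control cells (46.4 to 63.7) and 26.2% of mutant cells (17.0 to 37.3). *Rdh10* was found in 30.1% (22.6 to 38.6) and 11.2% (5.27 to 20.3). The intervals of these 2 genes did not overlap between the libraries. How large a share of all genes would differ in this way, at this or another depth, was not computed.

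For the other 4 genes the intervals overlapped at this depth. After thinning to 5000 UMIs those of *Rdh5* did not, with 66.7% of control (57.7 to 74.8) and 38.9% of mutant cells (27.6 to 51.1). At 3000 UMIs *Rlbp1* was found in 67.6% of control (59.1 to 75.4) and 53.8% of mutant cells (42.2 to 65.0), *Stra6* in 55.9% (47.1 to 64.4) and 46.2% (35.0 to 57.8), *Rdh5* in 52.2% (43.5 to 60.8) and 38.8% (28.1 to 50.3), and *Rbp4* in 9.56% (5.19 to 15.8) and 5.00% (1.38 to 12.3). Red blood cell-like cells, used as the class without these genes, gave at most 0.562% in the control (178 cells) and 0.483% in the mutant (414 cells) for any of the 6 at the same depth. Without thinning *Ttr* was found in 49.2% and 25.2% of RPE-like cells in the control and mutant libraries and in 1.90% and 0.204% of red blood cell-like cells, whose median depths were 22427 and 22657 UMIs. *Rdh10* was found unthinned in 37.5% and 23.9% of RPE-like cells, *Rlbp1* in 60.2% and 55.5%, *Stra6* in 59.4% and 53.5%, *Rdh5* in 52.3% and 44.5% and *Rbp4* in 19.1% and 16.1%. The plot of UMIs per cell shows the spread behind these shares.

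**Figure D3:**
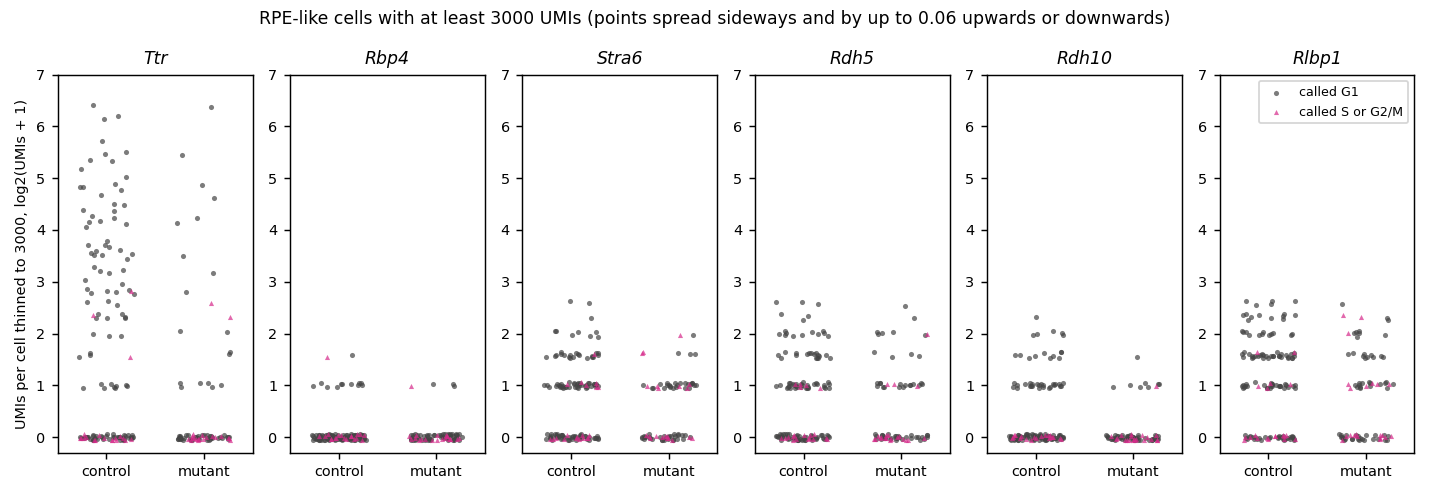
UMIs of each gene per RPE-like cell after thinning to 3000 UMIs, as log2(UMIs + 1), with cells called G1 as grey circles and cells called S or G2/M as pink triangles. *Ttr* spans 0 to 86 UMIs in the 136 control cells and 0 to 80 in the 80 mutant cells, while the other 5 genes stay at 5 UMIs or fewer.

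*Ttr* was very uneven among RPE-like cells. At 3000 UMIs per cell its median was 1 UMI and its upper quartile 10 in the control, with a highest cell of 86 UMIs. In the mutant the median was 0 and the upper quartile 1, and the highest cell had 80 UMIs, close to the highest control cell. At least 10 *Ttr* UMIs were found in 36 of 136 control cells (26.5%, 19.3 to 34.7) and 7 of 80 mutant cells (8.75%, 3.59 to 17.2). Before thinning, the top cell of the mutant held 22.5% of all its *Ttr* UMIs in RPE-like cells and that of the control 7.77%, and without the top cell of each library the ratio was -1.90.

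Cells with *Ttr* had a UMI of *Rdh10*, *Rdh5* or *Rlbp1* in larger shares than cells without, while *Stra6* and *Rbp4* differed less. In the control, *Rdh10* had a UMI in 45.3% of the 75 thinned cells with *Ttr* and in 11.5% of the 61 without, and *Rdh5* in 69.3% and 31.1%. *Rlbp1* was found in 84.0% and 47.5%, *Stra6* in 60.0% and 50.8% and *Rbp4* in 10.7% and 8.20%. Among mutant cells the shares were 33.3% of 21 and 3.39% of 59 for *Rdh10*, 71.4% and 27.1% for *Rdh5*, 81.0% and 44.1% for *Rlbp1*, 52.4% and 44.1% for *Stra6* and 9.52% and 3.39% for *Rbp4*. At least 4 of the 6 genes were found in 34.6% of control and 15% of mutant cells, and none of them in 11.8% and 20%. These shares describe cells of 1 library each and were not tested.

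Cell cycle calls moved with these values. A gene expression score called 76.6% of RPE-like cells in the control and 65.8% in the mutant G1 and the rest S or G2/M. *Ttr* had 2804 CPM in control G1 cells and 132 CPM in control S or G2/M cells, and 1051 and 124 CPM in the mutant. *Rdh10* had 198 and 15.8 CPM in the control and 64.6 and 21.8 CPM in the mutant. Within G1 cells the ratios were -1.41 (-1.51 to -1.32) for *Ttr* and -1.60 (-2.02 to -1.24) for *Rdh10*, and *Rbp4* had -1.28, *Rdh5* -0.77, *Rlbp1* -0.70 and *Stra6* -0.61, so all 6 were lower without the cells called S or G2/M.

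In the 60 control and 53 mutant cells called S or G2/M none of the 6 genes was lower by 2-fold, where 8.35% of all genes were. *Ttr* had a ratio of -0.10 (-0.69 to 0.52), *Stra6* of -0.03 (-0.54 to 0.51) and *Rbp4* of -0.37 (-1.42 to 0.71). *Rlbp1* at 0.14 (-0.39 to 0.70), *Rdh5* at 0.08 (-0.60 to 0.83) and *Rdh10* at 0.34 (-1.22 to 2.37) had ratios above 0, the last from 5 and 10 UMIs. The interval of *Ttr* in these cells lay wholly above its interval in G1 cells, and so did those of *Rlbp1* and, narrowly, *Rdh10*, whereas those of the other 3 genes overlapped their G1 intervals. Without the share of all genes whose intervals differ in this way, which was not computed, this is not a result particular to these genes. No test over samples could be made of this difference.

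RPE-like cells separated by depth at a finer clustering (resolution 1.6, 254 control cells), into a deeper sub-cluster of 113 control and 66 mutant cells (medians 15435 and 17042 UMIs) and a shallower one of 141 and 89 cells (medians 1094 and 1301). In the deeper sub-cluster the ratios were -1.58 for *Ttr*, -1.71 for *Rdh10*, -1.19 for *Rbp4*, -0.89 for *Rdh5*, -0.80 for *Rlbp1* and -0.66 for *Stra6*. In the shallower one *Ttr* had -1.99 (-2.38 to -1.65), and the intervals of the other 5 genes held 0, with *Stra6* at -0.06 (-0.62 to 0.49) and *Rdh5* at -0.15 (-0.85 to 0.52). Control levels were themselves lower in the shallower cells, with 930 against 2770 CPM for *Ttr* and 43.7 against 202 CPM for *Rdh10*.

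Embryo sex was a further difference between the pools. By *Xist* and Y-linked UMIs, 41 control and 15 mutant RPE-like cells were female and 66 and 45 male, with the rest not called. All 6 genes were lower in both sexes. *Ttr* had ratios of -1.29 (-1.47 to -1.12) in female and -1.63 (-1.76 to -1.50) in male cells, and *Rdh10* -1.22 (-2.05 to -0.56) and -2.11 (-2.75 to -1.59). *Rlbp1* was lower by more in female cells, at -1.52 (-2.06 to -1.07), than in male cells, at -0.59 (-0.82 to -0.37), and those intervals did not overlap. The female mutant level rested on 42 UMIs in 15 cells. With 3 samples per pool, sex cannot be told apart from embryo here. The plot of ratios within parts of the RPE-like cells sets these values beside each other.

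**Figure D4:**
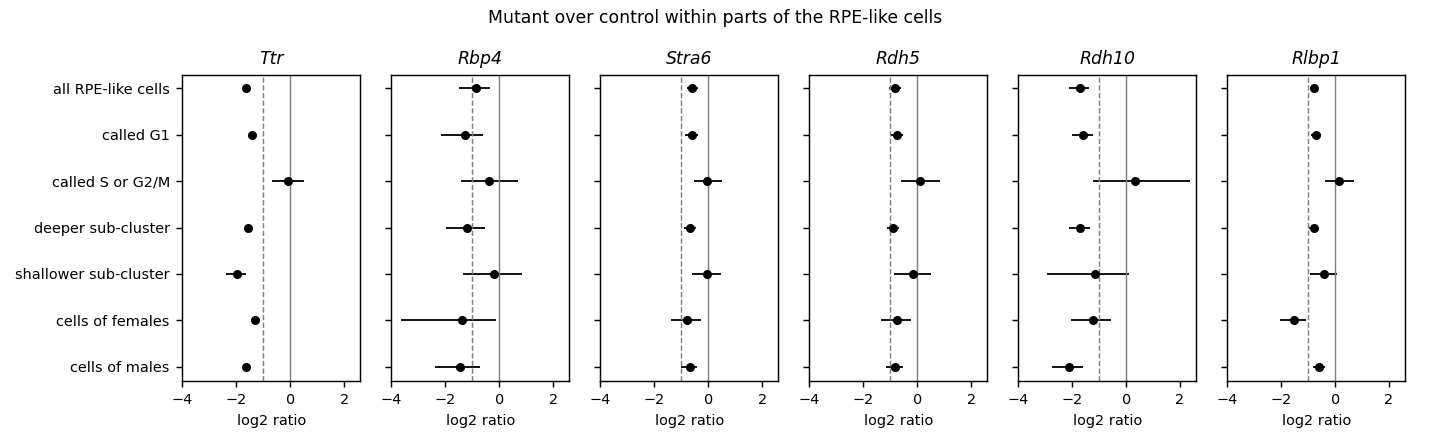
Log2 ratio of mutant over control for each gene in all RPE-like cells and in parts of them, by cell cycle call, by depth sub-cluster and by sex, with 95% counting intervals and a dashed line at 2-fold. *Ttr* lies left of the dashed line in every part except the cells called S or G2/M, where it is at -0.10.

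Markers of other cell types also had UMIs in RPE-like cells, and some of their sums differed between the libraries. The 10 retinal progenitor markers that are not RPE markers summed to 1182 CPM in RPE-like cells of the control and 918 CPM in those of the mutant, against 6627 and 6984 CPM in retinal progenitor-like cells, and all 10 had UMIs in both. The 11 ganglion cell markers summed to 237 and 51.5 CPM, against 11691 and 12596 CPM in their own class, with 1 marker at 0 in the mutant. The 8 neurogenic precursor markers summed to 295 and 549 CPM and the 15 mesenchyme markers to 250 and 255 CPM. Choroid plexus, another epithelium that makes *Ttr*, had 8 markers at 312 and 309 CPM, with 2 of them at 0 in each library, against 17.6 and 13.1 CPM in all other cells. The 11 surface ectoderm markers, keratins among them, summed to 2156 and 1562 CPM, against 71.5 and 61.6 CPM in all other cells, so both lists were themselves higher in RPE-like cells. The 10 red blood cell markers summed to 994 and 1504 CPM. The part of these RNAs in the ratios was not tested.

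Other genes of the pathway were compared in RPE-like cells in the same way. Of 42 further genes of retinoid transport and metabolism, 41 were in the gene table, 14 had 0 UMIs in RPE-like cells and 22 had at least 10 UMIs. Of these 22, 14 had ratios below 0 and 8 above, with a median of -0.09, beside -0.85 for the 6 detected genes. By at least 2-fold, 2 were lower and 0 higher, where 4.43% and 2.72% of all genes were. *Crabp1*, a carrier of retinoic acid, had 57 and 18 UMIs and a ratio of -1.11 (-2.02 to -0.38). *Crabp1* had 1145 and 1286 CPM in ganglion cell-like cells, whose markers were also fewer in mutant RPE-like cells as given above. *Bco1*, a carotenoid cleaving enzyme, had 9 and 2 UMIs and a ratio of -1.24 (-4.92 to 0.60).

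*Lrp2*, a receptor that takes up RBP4 among other ligands, had 22.2 and 12.7 CPM and a ratio of -0.76 (-1.66 to -0.01), an interval below 0 as for *Crabp1*. No gene of the list had an interval above 0. *Rrh*, an opsin of the RPE, had 31.2 and 20.05 CPM, with a ratio of -0.61 (-1.31 to 0.01). *Crabp2* had 307 and 291 CPM and a ratio of -0.07 (-0.25 to 0.10), and *Dhrs3*, which returns retinal to retinol, 19.4 and 25.4 CPM and a ratio of 0.39 (-0.29 to 1.06). The plot of 21 of the 22 genes gives the remaining ratios.

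**Figure D5:**
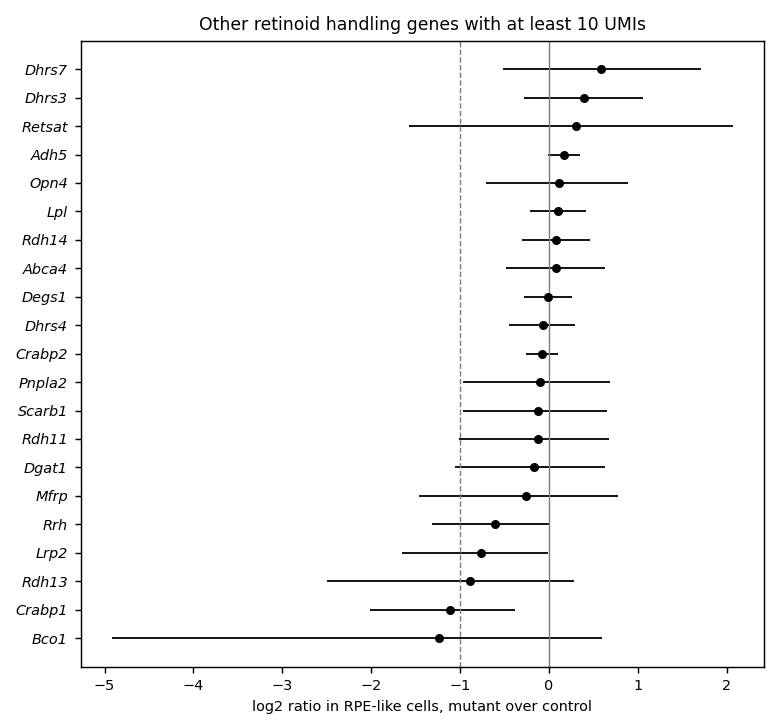
Log2 ratio of mutant over control in RPE-like cells for 21 of the 22 further retinoid genes with at least 10 UMIs, with 95% counting intervals and a dashed line at 2-fold. The ratios run from -1.24 for *Bco1* to 0.59 for *Dhrs7*, and only the interval of *Crabp1* and, narrowly, that of *Lrp2* lie wholly below 0 among the genes shown.

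The likeness of each gene's pattern to that of 13559 other genes was measured over the 30 pairs of class and library with at least 20 cells, as Pearson's r of log2(CPM + 1). *Ttr* was most like *Slc16a8* (0.92), a lactate transporter of the RPE, *Oca2* (0.92), a melanosome gene, and *Ak8* (0.92). *Rlbp1* was most like *Tdrd9* (0.93), *Col4a3* (0.92) and *Gsx2* (0.92), and *Rdh5* most like the pigment gene *Tyrp1* (0.87), *Rlbp1* (0.87) and *Gsx2* (0.87). Genes like *Stra6* included *Sept4* (0.84) and *Pdk2* (0.84). *Rdh10* was most like *Wdr31* (0.84), *Baiap2l1* (0.83) and *Tom1l1* (0.82), and *Rbp4* most like *Kcnip4* (0.92), *Trhde* (0.85) and *Glis1* (0.82). Among the 6, *Ttr* and *Rlbp1* were closest (0.91) and *Rdh10* and *Rbp4* farthest (0.22). The points share libraries and depth, so r is given as a description.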

How the data were processed

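Single cell libraries of e13.5 eye cups, 1 per genotype with 3 samples pooled in each, were analysed. The deposited values are UMI counts per gene and barcode, which the authors made with Cell Ranger (version 7.1.0 per the labels) on the mm10 genome, without normalization. Whether intronic reads or strand were used is not given in the sources used here. A barcode was dropped when it had fewer than 200 genes or more than 15% of its UMIs from mitochondrial genes. Scrublet marked 68 control and 65 mutant doublets (scanpy 1.11.5, expected rate 5%), which were left out. Cells were integrated and clustered in Seurat 5.3.0 (R 4.3.3) on 30 dimensions at a resolution of 0.8, using 1984 of 2000 variable features, since the 8 genes and other retinoid and targeted genes were left out. Clusters were named from listed markers by thresholds set after the clusters were seen.

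UMIs were summed per class and library. CPM has an exact Poisson interval, the log2 ratio (1 UMI added to each sum) an exact conditional binomial interval and shares of cells a Clopper-Pearson interval, and all cover counting error only. With 1 library per genotype no p-value was computed, and a gene with at least 10 UMIs over both libraries was called at a ratio of 2-fold. The ratio and its interval were tested on simulated counts. The 8 genes are all named, as are the further retinoid genes past 2-fold, *Crabp1*, *Crabp2*, *Dhrs3*, *Rgr*, *Rrh* and the 3 genes of most like pattern, except for 2 genes that are not reported here; *Lrp2* was named after its value was seen. The genes and lists were chosen with earlier results of these data known. Alternatives were to drop cells above 2000 UMIs (the doublet rule in the study's methods) or above 20000, to allow 5% mitochondrial UMIs, doublets kept, no integration, resolutions of 0.4 and 1.6, all variable features, rules per cell, parts of the RPE-like cells, other CPM denominators, means over cells, other minimum UMIs or folds, and thinning to 1500 and 5000 UMIs. The depth sub-clusters, the rule on pigment genes and the pigment sum without *Slc24a5* were added after seeing the data. Gene positions are from GENCODE vM21.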

Additional observations from a re-analysis of the deposited data

How the results depend on the processing

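Each of the 6 ratios in RPE-like cells was recomputed under 19 alternatives. *Ttr* and *Stra6* stayed below 0 under 19 of 19, from -3.23 to -0.10 and from -0.79 to -0.03. *Rlbp1* (-1.52 to 0.14), *Rbp4* (-1.44 to 0.16) and *Rdh10* (-3.11 to 0.34) stayed below 0 under 18, and *Rdh5* (-0.9992 to 0.48) under 17. The lowest ratio of *Rdh10* came from 11 control and 0 mutant UMIs, under the limit of 2000 UMIs per cell. The ratios above 0 were those of *Rlbp1* (0.14), *Rdh5* (0.085) and *Rdh10* (0.34) in cells called S or G2/M, and of *Rdh5* (0.48, from 14 and 14 UMIs) and *Rbp4* (0.16, from 4 and 3 UMIs) under the limit of 2000 UMIs per cell, which leaves 98 control and 65 mutant cells. The cause was not tested. The number of genes lower by at least 2-fold was 2, where 4.43% of all genes were. The share of all genes lower by that much is given in brackets for each setting that changed it. It became 1 (2.11%) under the rule per cell on 3 RPE markers, which takes 1210 control and 899 mutant cells. It became 0 (8.35%) in cells called S or G2/M and 4 (5.37%) in cells of female embryos. With *Rbp4* added it became 3 under the limit of 20000 UMIs (4.895%) and in male cells (5.95%). The same 3 were lower in cells called G1 (4.33%) and in the deeper sub-cluster (4.89%). At 1.5-fold it became 6, and 12.4% of all genes lay past that fold. The 2 further retinoid genes lower by 2-fold became 1 with at least 50 UMIs, 1 at a mitochondrial limit of 5% and 0 under the rule per cell or in either depth sub-cluster. *Ttr* was at -3.23 under the mitochondrial limit of 5% and at -1.12 under the limit of 20000 UMIs. As a mean over cells *Ttr* was at -1.325, *Rdh5* at -0.32 and *Rbp4* at -0.12. Shares of cells moved with the depth of thinning in 17 of 24 cases, and at 5000 UMIs the intervals of *Rdh5* no longer overlapped. No paired analysis was possible because each genotype has 1 library.

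Depth limits *Rbp4* (95 and 36 UMIs in RPE-like cells) and the smallest classes most, and the pooling of 3 samples leaves the spread between embryos unknown.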

Other observations

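Retinoic acid enzymes, which act on the retinal that RDH10 makes, had patterns of their own. *Aldh1a1* and *Aldh1a3*, which oxidise retinal to retinoic acid, were found in retinal progenitor-like cells, with 264 and 298 CPM for *Aldh1a1* and 227 and 186 CPM for *Aldh1a3* in the control and mutant libraries. Surface ectoderm-like cells also had *Aldh1a3*, at 189 and 157 CPM. In RPE-like cells *Aldh1a3* had 103 CPM (89.8 to 118) in control and 142 CPM (123 to 162) in mutant cells, and the ratio was 0.46 on the log2 scale (0.18 to 0.74), the opposite direction to *Rdh10*. *Aldh1a1* had 18.9 and 22.7 CPM there, with a ratio of 0.27 (-0.44 to 0.96). *Aldh1a2* was found in periocular mesenchyme-like cells (35.7 and 31.5 CPM) and in the *Fmo1* and *Spp1* cluster (67.6 and 52.3 CPM), and had 1 and 5 UMIs in RPE-like cells. Of the enzymes that degrade retinoic acid, *Cyp26a1* had 46.3 and 45.5 CPM in retinal progenitor-like cells and 2 and 3 UMIs in RPE-like cells. In surface ectoderm-like cells *Cyp26a1* had 7.89 CPM in the control and 80.0 CPM in the mutant, from 5 and 47 UMIs. *Cyp26b1* had 55.2 and 66.1 CPM in endothelial-like cells. *Cyp26c1* had 1 UMI in the named classes of both libraries together.

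Among the unnamed clusters, the one led by the platelet genes *Pf4* and *Gp9* had 38 *Ttr* UMIs in its 16 control cells and 0 in its 13 mutant cells, and 3 and 1 *Rlbp1* UMIs. These cells were shallow, with a median of 847 UMIs, so few UMIs gave a high level. The *Rlbp1* UMIs were 119.5 CPM (24.65 to 349.3) in the control and 41.6 CPM (1.05 to 231.7) in the mutant. The shallow unnamed cluster led by *Gm26870* and *Lars2* had 79.3 and 41.3 CPM of *Stra6* from 45 and 19 UMIs.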
